A study of Mus musculus with 6 samples.

Results

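Chemokines are small secreted or membrane-bound proteins that guide leukocytes through G protein-coupled receptors, and the atypical receptors of the Ackr group bind chemokines without G protein signalling. The genes described here are all entries of the deposited gene table whose symbol is a chemokine ligand (Ccl, Cxcl, Cx3cl, Xcl), a chemokine receptor (Ccr, Cxcr, Cx3cr, Xcr) or an atypical receptor (Ackr) followed by its number. The rule found 51 genes of 18227, of which 34 were ligands, 13 were receptors and 4 were atypical receptors. RNA was sequenced from corneas of male C57BL/6 mice aged 6 weeks, kept specific-pathogen-free, with 3 samples from mice lacking Muc13 (Muc13-/-, called KO 1 to 3) and 3 from wild-type mice (WT 1 to 3). Muc13 is a transmembrane mucin of epithelial surfaces, and the design asks which genes differ between the genotypes. The deleted part of Muc13 and how many mice each sample holds are not given in the labels, so p-values measure the spread between these samples, which may be technical.

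In the cornea, a tissue that is normally clear and poor in leukocytes, epithelial cells and keratocytes can release neutrophil-attracting ligands such as Cxcl1, and interferon induces Cxcl9 and Cxcl10. Cxcl9 and Cxcl10 act through Cxcr3, a receptor of activated T cells and natural killer cells. Other ligands, among them Cxcl12, Cxcl14 and Cx3cl1, are made without inflammation by stromal, epithelial or neural cells.

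Totals ran from 1.41e+07 to 1.48e+07 counts in the KO libraries and from 1.49e+07 to 1.55e+07 counts in the WT libraries. Muc13 had 9, 4 and 2 counts across KO 1 to 3, against 18, 21 and 9 across WT 1 to 3, so the groups overlapped in CPM, counts scaled to the size of each library, with KO 1 at 0.597 CPM and WT 3 at 0.561 CPM. The corneal marker Krt12 was abundant throughout, with 21842 to 191124 counts in the KO libraries and 160416 to 540883 counts in the WT libraries. RNA of other eye tissues differed in amount. A list of 20 retina genes summed to between 22140 and 38431 CPM in the KO libraries and to 24826 CPM in WT 3, against 77.5 and 288 CPM in WT 1 and WT 2, so WT 1 and WT 2 stand apart from the other 4 libraries. A list of 8 pigment cell genes was highest in KO 3, at 6584 CPM, where the 15 corneal epithelium genes were lowest, at 5820 CPM. In whole-tissue libraries, fewer cells of a type and less RNA per cell cannot be told apart.

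Cxcl9 and Cxcl10, the interferon-induced ligands, lie 18558 bases apart on chromosome 5 and are transcribed from the same strand. Their promoters are shown because Cxcl9 was at 0 in the KO libraries while its neighbour was not, and they were read 5′ to 3′ on the genes' strand, minus, from 250 bases before to 50 bases after the RefSeq start site (GRCm38.p6; chr5:92328030-92328329 for Cxcl9 and chr5:92348840-92349139 for Cxcl10). Runs of capitals mark matches to GAAA and GAAA set 2 bases apart, the letters of an interferon-stimulated response element, or to GGGA and TTCC set 2 bases apart, a form of the NF-kB site, each searched on both strands, and a single capital marks the first transcribed base.
Cxcl9: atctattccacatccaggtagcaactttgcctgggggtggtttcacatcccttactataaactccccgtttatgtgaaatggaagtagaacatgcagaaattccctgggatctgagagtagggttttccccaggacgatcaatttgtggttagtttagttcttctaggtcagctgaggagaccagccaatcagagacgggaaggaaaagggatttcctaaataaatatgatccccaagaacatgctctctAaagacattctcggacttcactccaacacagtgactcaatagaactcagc
Cxcl10: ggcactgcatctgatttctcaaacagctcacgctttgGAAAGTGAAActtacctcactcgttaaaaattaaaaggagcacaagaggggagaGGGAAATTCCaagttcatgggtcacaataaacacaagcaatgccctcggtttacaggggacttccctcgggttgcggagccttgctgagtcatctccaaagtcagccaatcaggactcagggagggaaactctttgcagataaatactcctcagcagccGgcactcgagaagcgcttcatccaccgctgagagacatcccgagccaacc
The Cxcl10 window held GAAAGTGAAA starting 213 bases before the start site and GGGAAATTCC starting 159 bases before it. The Cxcl9 window held no exact match to either motif, nor to TTC and GAA set 3 bases apart, a form of the gamma-activated site. Only these exact letters were searched, so sites that depart from them would be missed. A window without a match can still hold elements that respond to interferon or NF-kB. Of all 32851 promoter windows of this length, 3.44% held the first motif, 1.47% the second and 8.30% the third.

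Cxcl9, which attracts activated T cells, had 0 counts in each of the 3 KO libraries and 22, 20 and 13 counts in WT 1 to 3. It averaged 0 CPM in the KO group and 1.31 ± 0.460 CPM in the WT group (SD, n = 3 each). Every KO library lay below every WT library, and the KO level was at least 6.49-fold lower against a floor of 3 counts per library, set in the KO library with the highest floor (0.203 CPM). The exact two-sided permutation p was 0.1, the smallest that 3 against 3 allows. With edgeR's quasi-likelihood test the fitted log2 fold change of KO over WT was −7.29 (SE 0.949, adjusted p = 0.501 over all 14983 genes tested), a size that depends on the handling of 0 counts. The DESeq2 Wald test gave −6.78 (SE 1.39, adjusted p = 0.000699). Without WT 3, edgeR gave −7.52 with an adjusted p = 0.0154, in a fit that called 34.1% of all genes. The edgeR test thus called Cxcl9 in the fit that leaves out WT 3 and in no other that was run.

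Cxcl10, a second ligand of the same receptor, had 27, 4 and 25 counts across KO 1 to 3, against 7, 23 and 24 across WT 1 to 3. The groups overlapped fully, with 1.20 ± 0.815 CPM in the KO group and 1.22 ± 0.593 CPM in the WT group. The log2 fold change was −0.031 (SE 0.809, edgeR adjusted p = 0.982), and it ran from −0.43 to 0.44 when single libraries were left out. KO 1, with 0 counts of Cxcl9, had the highest level of Cxcl10, at 1.79 CPM, and WT 1, with the most Cxcl9, was at 0.545 CPM. Exons of Cxcl10 overlap those of Art3 on the other strand, and the labels do not say whether reads were counted by strand. Art3 had 103, 234 and 269 counts across KO 1 to 3, against 611, 503 and 187 across WT 1 to 3. Its order over the libraries did not follow that of Cxcl10. Cxcl11, the other ligand of this receptor, was not analysed here.

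Cxcr3 itself was at the edge of detection, with 4, 2 and 3 counts across KO 1 to 3, against 0 in each WT library. The groups did not overlap, in the direction opposite to Cxcl9, but the gene did not pass the filter on low counts, and the KO mean of 0.195 CPM is about the level of 3 counts. The Cd3 genes that define T cells were as scarce. Cd3d had 1 count in each KO library and 0 in each WT library, Cd3e had 0 to 1 counts in KO and 0 to 2 counts in WT libraries, and Cd3g had 3, 0 and 5 counts across KO 1 to 3, against 0 in the WT libraries. The whole list of T and natural killer cell markers, with 16 of 17 genes in the table, summed to 5.00 to 7.03 CPM in the KO libraries and 1.87 to 5.30 CPM in the WT libraries. Its 3 tested genes were all above 0 (median 1.03), and Cd4 and Zap70 were higher in every KO library than in any WT library, beside 4.71% of all genes. Cd4, which macrophages can also carry, had 22, 12 and 33 counts across KO 1 to 3, against 3, 9 and 8 across WT 1 to 3 (log2 fold change 1.63, SE 0.601, edgeR adjusted p = 0.501). Zap70 had 33, 31 and 32 counts across KO 1 to 3, against 3, 13 and 30 across WT 1 to 3. Some untested genes of the list leaned the other way. Cd2 had 0 counts in each KO library, against 1, 2 and 1 across WT 1 to 3. Cd247 had 6, 9 and 8 counts across KO 1 to 3, against 6, 12 and 12 across WT 1 to 3. Gzmb had 3, 0 and 2 counts across KO 1 to 3, against 2, 2 and 7 across WT 1 to 3. The part of such cells in these values was not tested.

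A list of 30 interferon-response genes, chosen with earlier results of these data known, summed to 468 to 787 CPM in the KO libraries and 1556 to 2257 CPM in the WT libraries. All 28 of its members in the table had a log2 fold change below 0 (median −1.73), beside 48.5% of all genes tested. None passed the adjustment in edgeR, and 24 were lower at an unadjusted p under 0.05, beside 3.66% of all genes. Markers of other tissues lay on the same side. All 15 corneal epithelium genes were below 0 (median −1.53, 1 lower at an unadjusted p under 0.05), as were all 12 skeletal muscle genes (median −2.41, 2 lower), which summed to 98.1 to 946 CPM in KO and 345 to 4387 CPM in WT libraries. Every KO library was below every WT library in 25 interferon-response genes and in 0 genes of either tissue list, beside 5.51% of all genes. The part of these tissues in the interferon-response levels was not tested. Cxcl9 lay on the same side as this list, while Cxcl10 did not differ beyond the spread between libraries. Among the upstream genes, the interferon gamma receptor chains Ifngr1 and Ifngr2 had log2 fold changes of −0.82 (SE 0.340) and −0.62 (SE 0.256), without passing. The type I receptor chains Ifnar1 and Ifnar2 were at 0.16 (SE 0.181) and −0.11 (SE 0.348).

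**Figure D1:**
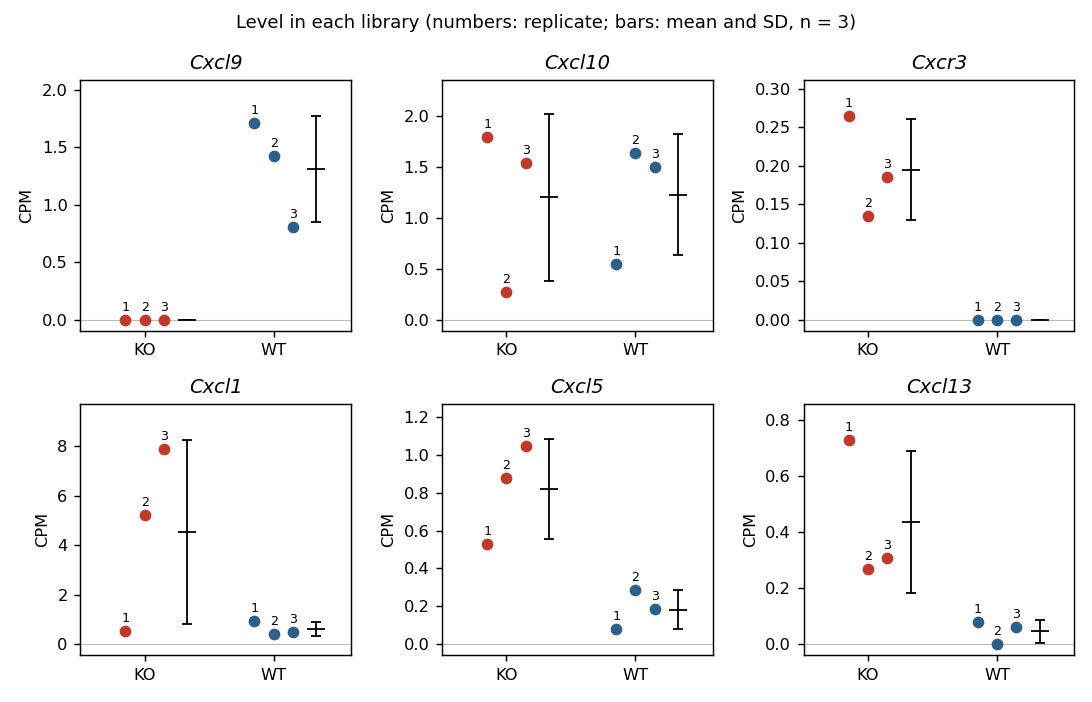
Level of 6 genes in each library in CPM (vertical axis, linear), KO left of WT; points are libraries with their replicate number, and the bar gives the mean and SD (n = 3 each). Cxcl9 sits at 0 in all KO libraries and between 0.810 and 1.71 CPM in the WT libraries, Cxcl10 overlaps, and Cxcr3, Cxcl5 and Cxcl13 lie higher in every KO library than in any WT library.

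Of the 51 genes, 24 passed the filter on low counts and were tested, and 27 did not pass it. At an edgeR adjusted p under 0.05, 0 of the 24 were called, as were 0 of the 14983 genes tested (0%). At an unadjusted p under 0.05, which 4.38% of all genes reached, 1 member was higher in KO (Cxcl1, where the share of all genes is 0.721%) and 1 was lower (Cxcl9, where it is 3.66%). The DESeq2 Wald test called 1 member, Cxcl9, among 0.409% of the genes for which it gave an adjusted p (0.335% lower in KO). Groups did not overlap in 1 tested member higher in KO (Ccl25, against 4.71% of all genes) and in 1 lower (Cxcl9, against 5.51%). Both counts are close to what the background share gives for 24 genes. Cxcl9 passed the filter through its WT libraries alone.

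The median of the ligands lay near that of all genes. The 17 ligands tested had a median log2 fold change of −0.031, with 7 above 0 and 10 below, beside a median of 0.024 over all genes tested, of which 51.5% were above 0. Cxcl9 is the lowest ligand both as fitted and at its floor, so this choice could not move the median of the ligands. Among the 4 receptors tested 3 were above 0 and the median was 0.54, and among the 3 atypical receptors 2 were above 0 and the median was 1.51. Apart from Cxcl9 and Cxcl10, the 15 other ligands had a median of −0.013, with 7 above 0 and 8 below. The mean of Cxcl9 and Cxcl10 was −3.66 as fitted and −1.36 with Cxcl9 at its floor, and it rests on Cxcl9. Leaving out KO 3 moved the median of the ligands to −0.35 and leaving out WT 2 moved it to 0.60, so its sign depends on single libraries. With a library left out, the median of the receptors ran from −0.0066 to 0.66, so its sign also rests on single libraries. That of the atypical receptors ran from 0.67 to 2.55, and it was 0.71 with retina content as a covariate.

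**Figure D2:**
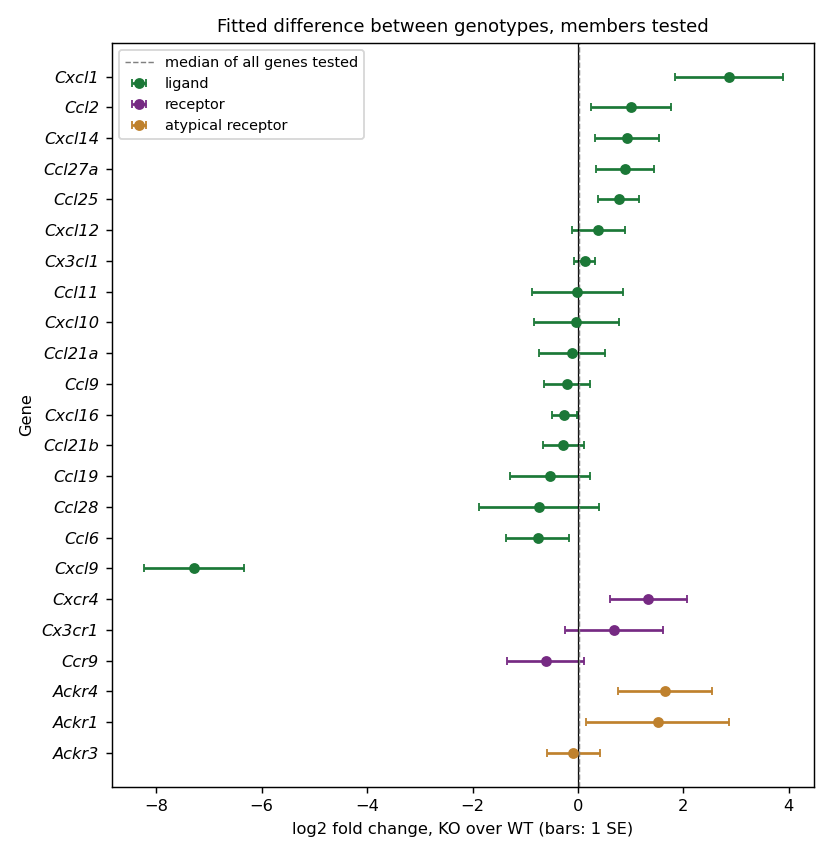
Fitted log2 fold change of KO over WT (horizontal axis, bars 1 SE) for genes that were tested, grouped into ligands, receptors and atypical receptors; the dashed line is the median of all genes tested. All but Cxcl9 lie between −0.76 and 2.86, and the value of Cxcl9, at −7.29, rests on 0 counts in the KO libraries.

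Neutrophil-attracting ligands form a run of 5 genes on chromosome 5, Cxcl5, Cxcl3, Cxcl15, Cxcl1 and Cxcl2, within 146.6 kb (90759360 to 90905938, GRCm38). The promoter of Cxcl1 is shown because this was the 1 member with an unadjusted p under 0.05 on the higher side (plus strand, chr5:90890995-90891294, same window and marks as above).
Cxcl1: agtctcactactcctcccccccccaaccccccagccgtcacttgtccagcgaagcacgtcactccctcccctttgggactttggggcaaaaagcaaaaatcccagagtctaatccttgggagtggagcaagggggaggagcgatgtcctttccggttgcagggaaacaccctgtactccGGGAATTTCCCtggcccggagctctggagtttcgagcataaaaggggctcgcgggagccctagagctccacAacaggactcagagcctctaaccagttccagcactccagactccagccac
Its run of capitals marks overlapping NF-kB-like matches on the 2 strands, which start 71 and 70 bases before the start site. Such a match was also found in the windows of Cxcl2, Cxcl3 and Cxcl10, and so in 4 of the 25 ligands that had a RefSeq promoter.

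Cxcl1, a main attractant of neutrophils in injured mouse cornea, had 8, 77 and 128 counts across KO 1 to 3, against 12, 6 and 8 across WT 1 to 3. KO 2 and KO 3 were high, at 5.20 and 7.89 CPM, while KO 1, at 0.530 CPM, lay within the WT range of 0.426 to 0.933 CPM, so the groups overlapped. The group means were 4.54 ± 3.72 CPM in KO and 0.620 ± 0.274 CPM in WT (SD, n = 3 each). The log2 fold change was 2.86 (SE 1.02) with an edgeR adjusted p = 0.501. It was 3.39 without KO 1 and 2.20 without KO 3.

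Cxcl5, another ligand of the neutrophil receptor Cxcr2, had 8, 13 and 17 counts across KO 1 to 3, against 1, 4 and 3 across WT 1 to 3. Each KO library was above each WT library, at 0.819 ± 0.264 CPM against 0.183 ± 0.103 CPM in WT, a pooled count ratio of 4.43 (95% exact interval 2.03 to 10.98, counting error only). It did not pass the filter, and in the edgeR fit without a filter its log2 fold change was 2.10 (SE 0.641, adjusted p = 0.540). Cxcl2 had 6, 11 and 4 counts across KO 1 to 3, against 2, 1 and 8 across WT 1 to 3, with overlap. Cxcl3 and Cxcl15 had 1 count each, both in KO 3. Cxcr2 had 2 to 4.34 counts in the KO libraries and 2 to 6.01 counts in the WT libraries, part of them shared with other genes.

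Neutrophil markers overlapped between the genotypes in their sum. The list of 13, of which 12 are in the table, summed to 13.0 to 25.7 CPM in KO and 5.29 to 21.9 CPM in WT libraries. The granule protein gene S100a9 had 18, 17 and 11 counts across KO 1 to 3, against 7, 21 and 17 across WT 1 to 3, and Ly6g had 1 count in all. Of the 5 genes tested 3 were above 0 and 2 below (median 1.22), and 0 were free of overlap. Csf3r had 17, 26 and 45 counts across KO 1 to 3, against 3, 10 and 20 across WT 1 to 3 (log2 fold change 1.35, SE 0.714). Retnlg, not tested, had 1, 3 and 3 counts across KO 1 to 3, against 0 in each WT library. Most of the sum came from Ltf, Lcn2 and Mmp9. Mmp9 had 117, 82 and 58 counts across KO 1 to 3, against 2, 7 and 105 across WT 1 to 3. Lcn2, also made by epithelium, had 61, 95 and 75 counts across KO 1 to 3, against 3, 21 and 69 across WT 1 to 3, and Ltf had 169, 91 and 12 counts across KO 1 to 3, against 50, 236 and 75 across WT 1 to 3. The part of neutrophils in the levels of Cxcl1 and Cxcl5 was not tested. Of the cytokines known to induce Cxcl1, Il1b had 13, 14 and 18 counts across KO 1 to 3, against 6, 5 and 7 across WT 1 to 3 (log2 fold change 1.20, SE 0.419, edgeR adjusted p = 0.501), with no overlap between groups, beside 4.71% of all genes. Il1a lay on the other side, with 282, 193 and 30 counts across KO 1 to 3, against 337, 335 and 230 across WT 1 to 3 (−0.94, SE 0.796, edgeR adjusted p = 0.531), and was lowest in KO 3, where Cxcl1 was highest. Tnf had 78, 86 and 5 counts across KO 1 to 3, against 15, 66 and 73 across WT 1 to 3, and overlapped. The stress-induced factor Atf3, highest in KO 3 like Cxcl1, had 102, 139 and 688 counts across KO 1 to 3, against 31, 67 and 88 across WT 1 to 3.

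Levels between genes can be compared in TPM, the deposited unit that takes transcript length into account. On this scale 8 of the 51 genes had a mean of at least 10 TPM over the 6 libraries, 15 were between 1 and 10 TPM and 28 were under 1 TPM. The 8 were Ackr1, Ccl27a, Cxcl12, Cx3cl1, Ackr3, Cxcl16, Cxcl14 and Ccl21a, with means of 37.7, 37.4, 33.1, 30.4, 17.6, 14.4, 14.4 and 12.4 TPM in that order. Spread was wide, since Ackr1 ran from 0.50 to 81.6 TPM and Ccl27a from 9.04 to 52.7 TPM. Counts of Ackr1, Ccl27a and Ccl21a were not all whole, so their places in this order are uncertain. Within each genotype, neighbours in this order differed in mean by less than the larger of their SDs, except in the KO group for Cx3cl1 and Ackr3 (33.6 ± 5.27 and 18.9 ± 11.3 TPM) and for Cxcl14 and Ccl21a (19.3 ± 5.52 and 13.2 ± 1.42 TPM, SD, n = 3). No signalling receptor reached 10 TPM, and the most abundant, Cxcr4, had a mean of 2.56 TPM.

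**Figure D3:**
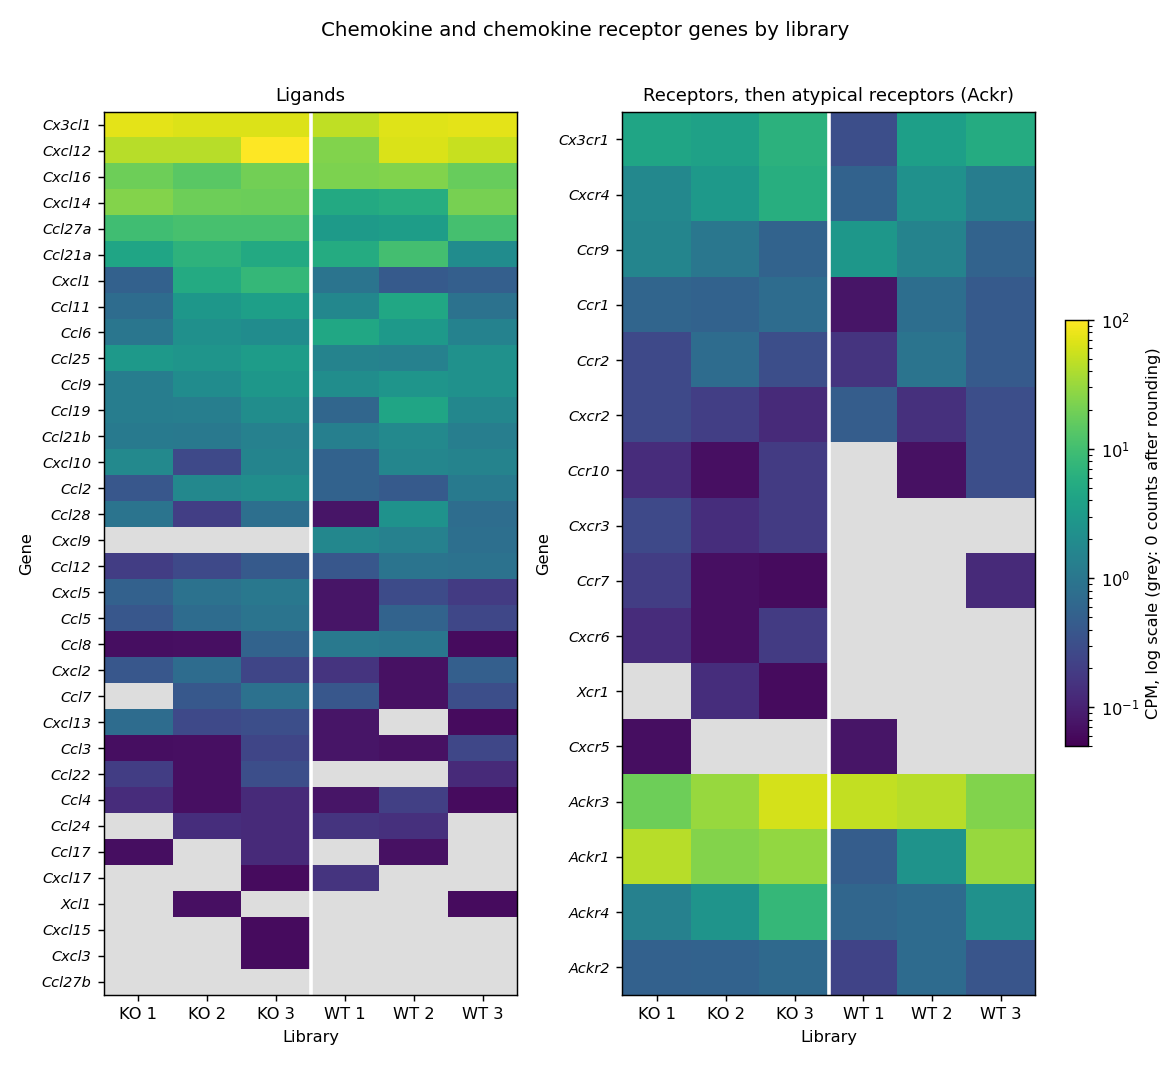
CPM of the chemokine and receptor genes (rows, ordered by mean within ligands, receptors and atypical receptors) in the 3 KO and 3 WT libraries (columns), on a log colour scale with 0 counts in grey. A few ligands and the atypical receptors Ackr1 and Ackr3 carry most of the counts, most receptors are near 0, and Cxcl9 is the gene with grey in every KO library and colour in every WT library.

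Cx3cl1, a membrane-bound ligand made by neurons and epithelium, was at 72.6, 66.5 and 67.5 CPM across KO 1 to 3, against 48.5, 68.2 and 72.7 CPM across WT 1 to 3 (log2 fold change 0.13, SE 0.195, edgeR adjusted p = 0.678). Cxcl16, the other membrane-bound ligand, was at 18.9, 14.4 and 19.9 CPM across KO 1 to 3, against 22.6, 23.9 and 17.0 CPM across WT 1 to 3 (−0.26, SE 0.232, adjusted p = 0.542). Both genes overlapped between the genotypes, and the signs of both turned when WT 3 was the only wild-type library (−0.076 and 0.062). Zmynd15, which overlaps exons of Cxcl16 on the other strand, had 7 to 40 counts per library.

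Several abundant members were low in WT 1 and WT 2 only. Cxcl14, a ligand made by epithelia in the resting state, was at 24.5, 18.6 and 17.9 CPM in KO 1 to 3 and 21.1 CPM in WT 3, against 5.13 and 5.76 CPM in WT 1 and WT 2. Ccl27a, a ligand of skin epithelium that acts through Ccr10, was at 9.81, 11.1 and 10.97 CPM in KO 1 to 3 and 10.6 CPM in WT 3, against 3.19 and 3.41 CPM in WT 1 and WT 2. Counts of Ccl27a were not all whole, so reads were divided between genes, and its level is uncertain as that of a single gene. In both Cxcl14 and Ccl27a, WT 3 lay within the KO range. Their log2 fold changes of 0.93 (SE 0.612) and 0.89 (SE 0.548) did not pass (edgeR adjusted p = 0.501 for both). Without WT 3 they were 1.90 and 1.68 and passed (edgeR adjusted p = 0.00795 and 0.0117, where 21.1% of all genes were called higher), and with WT 3 as the only wild-type library Cxcl14 was at −0.056. The retina genes were low in the same libraries. In the fit with retina content as a covariate, Cxcl14 was at −0.079 (SE 0.244) and Ccl27a at 0.035 (SE 0.310). The part of retina RNA in these levels was not tested.

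The same held for the atypical receptor Ackr1, which red blood cells and venules carry. It had 657, 363 and 477 counts across KO 1 to 3, against 6, 35 and 500 across WT 1 to 3 (log2 fold change 1.51, SE 1.36, edgeR adjusted p = 0.543). Ackr1 (chromosome 1, 173331886 to 173333750) shares exon sequence on the same strand with Cadm3, an adhesion gene of neural cells, and its counts were not whole in 4 libraries. Cadm3 had 3099, 1712 and 1855 counts across KO 1 to 3, against 36, 78 and 2671 across WT 1 to 3. The counts of both genes added up to a whole number in each library to within 0.011, and Ackr1 took 17.5%, 17.5% and 20.5% of that sum across KO 1 to 3, against 14.3%, 31.0% and 15.8% across WT 1 to 3. Its level is therefore uncertain as a single gene. In the fit with retina content as a covariate the log2 fold change of Ackr1 was −0.17, and without WT 3 it was 4.44 (adjusted p = 0.0137).

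Cx3cr1, the receptor for Cx3cl1 on microglia and macrophages, had 66, 58 and 108 counts across KO 1 to 3, against 4, 51 and 86 across WT 1 to 3. WT 1 alone was far below the rest, at 0.311 CPM against 3.62 to 6.66 CPM elsewhere. Its fitted log2 difference was 0.68 (SE 0.927, edgeR adjusted p = 0.641) and turned to −0.098 with WT 3 as the only wild-type library. The microglial marker P2ry12 had 18, 18 and 35 counts across KO 1 to 3, against 1, 8 and 28 across WT 1 to 3, and Tmem119 had 106, 95 and 179 counts across KO 1 to 3, against 29, 79 and 105 across WT 1 to 3. WT 1 was the lowest library in both, as it was in the macrophage marker Csf1r, with 241, 281 and 656 counts across KO 1 to 3, against 43, 186 and 270 across WT 1 to 3. The 7 microglia genes together summed to 101 to 132 CPM in KO and 117 to 216 CPM in WT libraries. The part of these cells in the level of Cx3cr1 was not tested.

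In all, WT 1 and WT 2 were both below the other 4 libraries in 6 of the 24 members tested (25.0%, beside 36.3% of all genes) and both above them in 3 (12.5%, beside 34.2%). The 6 were Ackr1, Ackr4, Ccl25, Ccl27a, Cx3cr1 and Cxcl14, and the 3 were Ccl6, Cxcl16 and Cxcl9. Another pattern was more frequent, since KO 3 was the highest library in 10 of the 24 members (41.7%, beside 24.1% of all genes). KO 3 also held the most RNA of pigment cell genes and the least of corneal epithelium genes, and the part of either in this count was not tested.

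Cxcl12, its signalling receptor Cxcr4 and its scavenging receptor Ackr3 were among those 10. Cxcl12, a ligand of stromal and endothelial cells, was at 43.8, 44.6 and 97.8 CPM across KO 1 to 3, against 23.5, 65.8 and 53.2 CPM across WT 1 to 3. Cxcr4 was at 1.72, 2.97 and 5.79 CPM across KO 1 to 3, against 0.545, 2.34 and 1.25 CPM across WT 1 to 3. Ackr3 was at 18.8, 31.1 and 60.5 CPM across KO 1 to 3, against 50.2, 43.6 and 23.4 CPM across WT 1 to 3. KO 3 stood above all other libraries in each, KO 1 was lowest for Ackr3, WT 1 was lowest for Cxcl12 and Cxcr4, and the groups overlapped. Log2 fold changes were 0.39 (SE 0.505) for Cxcl12, 1.34 (SE 0.727) for Cxcr4 and −0.084 (SE 0.507) for Ackr3, with edgeR adjusted p of 0.631, 0.501 and 0.921. Without KO 3 they were −0.10, 0.76 and −0.64, so for Cxcl12 the sign rests on that library, and Ackr3 turned to 0.66 with WT 3 as the only wild-type library. Vascular endothelium genes summed to 258 to 422 CPM in KO and 168 to 423 CPM in WT libraries, and KO 3 and WT 2 held the highest sums. Their part in these levels was not tested.

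**Figure D4:**
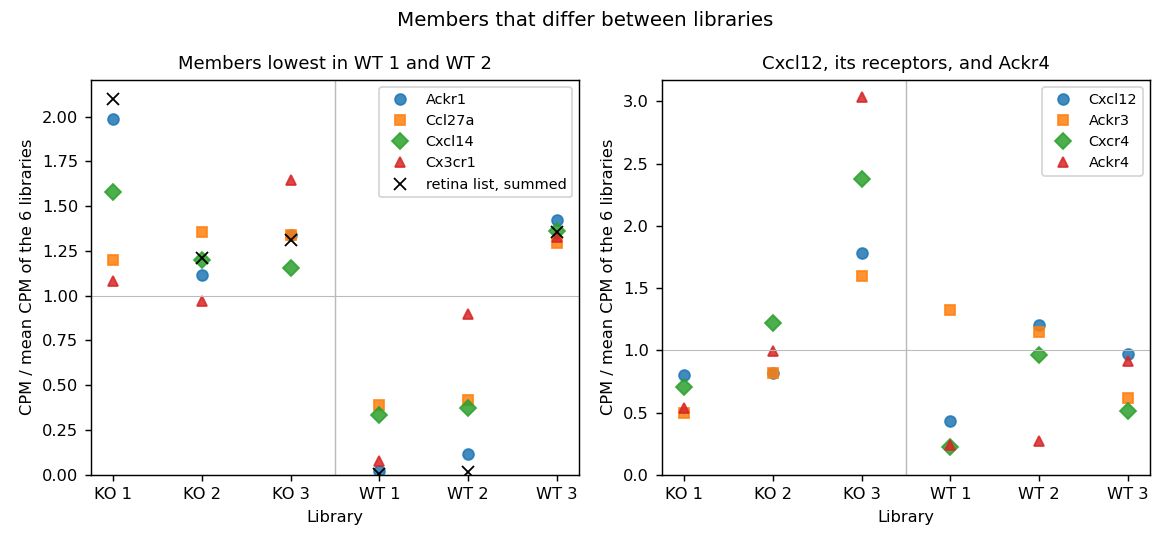
CPM of 8 members divided by the mean of the 6 libraries (vertical axis, linear) for each library (horizontal axis, KO left of WT); left, 4 members lowest in WT 1 and WT 2 with the summed retina list as crosses, and right, Cxcl12 with Ackr3, Cxcr4 and Ackr4. Ackr1, Ccl27a and Cxcl14 are at the KO level in WT 3 and far below it in WT 1 and WT 2, and all 4 genes on the right are highest in KO 3.

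Ligands that draw dendritic cells and lymphocytes to lymphoid tissue were present at low levels. Ccl21a was at 4.31, 6.82 and 5.05 CPM across KO 1 to 3, against 5.29, 10.2 and 1.99 CPM across WT 1 to 3, with overlap (log2 fold change −0.11, SE 0.632, edgeR adjusted p = 0.915), and its sign turned when WT 1 and WT 2 were left out (1.43). The near-identical copy Ccl21b was at 1.08 to 1.42 CPM in KO and 1.31 to 1.78 CPM in WT libraries (−0.28, SE 0.390, adjusted p = 0.648). Counts of both were not whole, so reads were divided between genes in counting, and neither level is certain as that of a single gene. Ccl19, which acts on the same receptor, had 19, 19 and 34 counts across KO 1 to 3, against 8, 62 and 27 across WT 1 to 3. The receptor Ccr7 had 3, 1 and 1 counts across KO 1 to 3, against 0, 0 and 2 across WT 1 to 3, too few to compare.

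Ackr4, which scavenges Ccl19, Ccl21 and Ccl25, had 21, 38 and 127 counts across KO 1 to 3, against 8, 10 and 38 across WT 1 to 3 (log2 fold change 1.66, SE 0.892, edgeR adjusted p = 0.501). KO 3 was the highest library and WT 3 lay above KO 1, so the groups overlapped, and without KO 3 the value was 0.67. Exons of Ackr4 overlap those of Acad11 on the other strand, with 402 to 567 counts in every library. Ackr2, which scavenges inflammatory CC ligands in lymphatic vessels, had 8 to 11 counts in KO and 3 to 10 counts in WT libraries.

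Ccl25, a ligand known from thymus and small intestine, was the 1 tested member higher in every KO than in every WT library. It was at 3.05, 2.63 and 3.33 CPM across KO 1 to 3, against 1.48, 1.42 and 2.37 CPM across WT 1 to 3 (log2 fold change 0.77, SE 0.396, edgeR adjusted p = 0.501; exact two-sided permutation p = 0.1, the smallest possible). WT 3 lay close to the KO range, and with WT 3 as the only wild-type library the value was 0.35. An exon of Ccl25 overlaps Elavl1 on the other strand, which had 985 to 1144 counts in every library. Its receptor Ccr9 had 24, 15 and 9 counts across KO 1 to 3, against 36, 21 and 9 across WT 1 to 3 and overlapped. Exons of Ccr9 overlap those of Slc6a20a on the other strand, which had 259 to 936 counts in KO and 137 to 178 counts in WT libraries.

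Among ligands of Ccr10, Ccl28, a mucosal ligand, had 14, 3 and 13 counts across KO 1 to 3, against 1, 34 and 12 across WT 1 to 3. Ccl27b, a copy of Ccl27a, had 0.16 counts in WT 2 and 0 elsewhere, and Ccl27a shared reads and overlaps Il11ra1 on the other strand, which had 650 to 1310 counts in KO and 398 to 826 counts in WT libraries. Ccr10 had 1 to 3 counts in KO and 0 to 5 counts in WT libraries.

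Cxcl13, which draws B cells to follicles, had 11, 4 and 5 counts across KO 1 to 3, against 1, 0 and 1 across WT 1 to 3. Each KO library was above each WT library, with a pooled count ratio of 9.32 (95% exact interval 2.26 to 82.2, counting error only) and an exact two-sided permutation p of 0.1. It did not pass the filter, and without a filter edgeR gave a log2 fold change of 3.01 (SE 0.931, adjusted p = 0.540). Its receptor Cxcr5 had 1 count in KO 1 and 1 in WT 1. B cell markers were scarce in both genotypes. Cd79a, which was not tested, had 7, 5 and 6 counts across KO 1 to 3, against 1, 2 and 1 across WT 1 to 3. Its groups did not overlap, beside 6.32% of genes that did not pass the filter and were higher in every KO library. Its partner in the B cell receptor, Cd79b, lay on the other side, with 11, 8 and 5 counts across KO 1 to 3, against 14, 17 and 11 across WT 1 to 3 (log2 fold change −0.91, SE 0.525). The plasma cell gene Jchain had 97, 67 and 63 counts across KO 1 to 3, against 3, 0 and 89 across WT 1 to 3. The list of 7 B and plasma cell genes summed to 5.67 to 7.96 CPM in KO and 1.40 to 6.86 CPM in WT libraries. Jchain made up most of that sum in the KO libraries, at 3.88 to 6.43 CPM, and in WT 3, at 5.55 CPM. It was at 0.233 and 0 CPM in WT 1 and WT 2. The part of B and plasma cells in Cxcl13 was not tested.

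Cxcr6, the receptor for Cxcl16 on T cells, had 2, 1 and 3 counts across KO 1 to 3, against 0 in each WT library. Together with Cxcl5, Cxcl13 and Cxcr3 it makes up the 4 untested members whose groups do not overlap, all higher in KO, while 0 untested members were lower in every KO library. Of all genes that did not pass the filter, 6.32% were higher and 3.05% lower in every KO library. The edgeR fit without a filter held 50 members. Of these, 5 (Cxcl1, Cxcl5, Cxcl13, Cxcr3 and Cxcr6) had an unadjusted p under 0.05 on the higher side. That side held 1.16% of the genes in the fit. Cxcl9 was the 1 member on the lower side, which held 3.73%. For Cxcr3 and Cxcr6, with 0 counts in every WT library, the fitted size depends on the handling of 0 counts. No member had an adjusted p below 0.540 in that fit. Xcr1, a receptor of cross-presenting dendritic cells, had 0, 2 and 1 counts across KO 1 to 3, against 0 in each WT library. Cxcl13, Cxcr6 and Xcr1 were singled out after their values were seen.

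Monocyte-attracting ligands sit in a pair of runs on chromosome 11. In the first (82035571 to 82116799), Ccl2 had 6, 26 and 34 counts across KO 1 to 3, against 7, 6 and 18 across WT 1 to 3, high in KO 2 and KO 3 like Cxcl1, but with KO 1 at the level of WT 1 and WT 2. Its neighbour Ccl7 had 0, 6 and 14 counts across KO 1 to 3, against 5, 1 and 5 across WT 1 to 3. Ccl12, a mouse ligand of Ccr2, had 3, 4 and 7 counts across KO 1 to 3, against 5, 13 and 14 across WT 1 to 3. Ccl8 had 1, 1 and 9 counts across KO 1 to 3, against 14, 14 and 1 across WT 1 to 3, and Ccl11, an attractant of eosinophils, had 11, 41 and 60 counts across KO 1 to 3, against 22, 66 and 14 across WT 1 to 3. The genes of this run did not share an order over the libraries, and all overlapped between the genotypes.

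In the second run (83525778 to 83664683), Ccl6 and Ccl9, ligands of Ccr1 in mouse myeloid cells, had 15 to 34 and 19 to 45 counts in the KO libraries and 23 to 59 and 27 to 37 counts in the WT libraries. Ccl5, a ligand made by T cells, had 6, 11 and 15 counts across KO 1 to 3, against 1, 8 and 4 across WT 1 to 3. Ccl3 and Ccl4 had at most 4 and 2 counts in a KO library and at most 4 and 3 counts in a WT library. The receptors were low as well, Ccr1 with 8 to 12 counts in KO and 1 to 11 counts in WT libraries, and Ccr2 with 4 to 11 counts in KO and 2 to 13 counts in WT libraries. All of these overlapped between the genotypes. Macrophage genes summed to 289 to 346 CPM in KO and 213 to 387 CPM in WT libraries. Itgam, whose counts were not whole, ran from 10.2 to 104 CPM in KO and 57.7 to 159 CPM in WT libraries within that sum. Of the 16 genes, 10 were above 0 and 6 below, and 2 were higher in every KO library, beside 4.71% of all genes. These were Lyz2 (log2 fold change 1.68, SE 0.282, edgeR adjusted p = 0.501) and Tyrobp (1.10, SE 0.487).

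The remaining ligands had at most 5 counts in any library. Ccl22 had 1 to 5 counts in KO and 0 to 2 counts in WT libraries, and Ccl17, its partner on Ccr4, had 0 to 2 counts in KO and 0 to 1 counts in WT libraries. Ccl24, an attractant of eosinophils, had 0 to 2 counts in both. Cxcl17, a mucosal ligand, had 1 count in KO 3 and 2 in WT 1, and Xcl1 had 1 count in KO 2 and 1 in WT 3. Of the 27 untested members, 12 had under 10 counts over all 6 libraries, and the highest count of any of the 27 in a library was 17. For the 12, differences were not detectable at this depth, apart from the lack of overlap in Cxcr3 and Cxcr6. Dendritic and Langerhans cell genes, carriers of Ccr7 and Xcr1, summed to 36.2 to 79.6 CPM in KO and 35.6 to 81.5 CPM in WT libraries. The antigen-presenting genes H2-Aa and H2-Ab1, which other cells also express, make up most of that sum and were at 0.0087 and −0.017. Of the 6 genes tested 4 were above 0, H2-Aa among them, and 2 were higher in every KO library, beside 4.71% of all genes. The integrin gene Itgax, 1 of these, had 32, 31 and 55 counts across KO 1 to 3, against 4, 22 and 8 across WT 1 to 3 (log2 fold change 1.67, SE 0.704, edgeR adjusted p = 0.501). Ciita lay on the other side, with 6, 8 and 14 counts across KO 1 to 3, against 8, 46 and 24 across WT 1 to 3 (−1.57, SE 0.731). Untested genes went both ways. Cd207 had 20, 3 and 18 counts across KO 1 to 3, against 0, 0 and 5 across WT 1 to 3. Clec10a had 5, 7 and 9 counts across KO 1 to 3, against 15, 23 and 7 across WT 1 to 3.

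Genes through which chemokine receptors signal were read from a list of 30, of which 24 were tested. In edgeR, 0 passed the adjustment, 16 were above 0 and 8 below, the median was 0.32, and 2 of the 24 were lower at an unadjusted p under 0.05, beside 3.66% of all genes. These were the phospholipase Plcb3 (−0.98, SE 0.370), which receptors activate through G protein subunits, and the Src-family kinase Lyn (−0.97, SE 0.342). The arrestins Arrb1 and Arrb2, which end receptor signalling, were at 0.58 (SE 0.378) and 0.91 (SE 0.514). Arrb1 was at 74.5 to 83.8 CPM in the KO libraries and 80.9 CPM in WT 3, against 29.2 and 47.5 CPM in WT 1 and WT 2. Gnb1, a G protein subunit abundant in retina, followed the same split, with 23496 to 38643 counts in the KO libraries and 26641 counts in WT 3, against 5137 and 5071 counts in WT 1 and WT 2. Gnai2, the main inhibitory G protein subunit of leukocytes, was at 0.034 (SE 0.210).

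A list of 14 related genes outside the naming rule had 10 tested, with 8 above 0, 2 below and 0 past the adjustment or at an unadjusted p under 0.05. The platelet chemokine Pf4 was at 0.26 (SE 0.431), and Rarres2, the precursor of chemerin, was at 1.52 (SE 0.799), highest in KO 3 with 1445 counts. The decoy-like receptor Ccrl2, whose expression inflammation raises, was at −0.93 (SE 0.526). Of 30 genes for cytokines, their receptors and factors that induce chemokines, 26 were tested, 9 were above 0 and 17 below (median −0.14), 0 passed the adjustment and 2, Il1b and Atf3, were higher at an unadjusted p under 0.05, beside 0.721% of all genes.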

How the data were processed

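Build GRCm38 (mm10) is named in the submitters' processing notes, and the labels' protocols name a SMARTER mRNA library kit. The labels do not say which aligner or counter was used, or whether strand was. The authors deposited 1 table of 18227 genes with expected counts (estimated reads per gene, not normalized), a signal of counts scaled by 1 size factor per library, TPM and FPKM. The scaled signal and FPKM the authors deposited, and the 8 average columns, were not used for results; TPM as deposited was used to compare levels between genes.

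Expected counts were rounded to whole numbers and tested with edgeR 4.0.16 in R 4.3.3 by its quasi-likelihood test (TMM scaling, filterByExpr, robust dispersion, genotype as the only term), with Benjamini-Hochberg adjustment over the 14983 genes tested and a threshold of 0.05. CPM are TMM-scaled. Each SE was taken as the log2 fold change over the root of its F value. The fit was tested on simulated counts. DESeq2 1.42.0 and limma 3.58.1 (voom) were alternatives, as were other scalings and filters, a replicate block, retina content as a covariate, and left-out libraries. A count of 3, the limit that 0 counts allow, is 0.185 to 0.233 CPM per library; this limit and exact 95% intervals cover counting error only. A chi-square comparison of counts gave means of 37.2 to 471 per gene for pairs of libraries, so no library repeats another.

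The members and lists were chosen with earlier results of these data known. Named genes follow a rule: Cxcl9, Cxcl10, Cxcl11 and Cxcr3, members with at least 5 CPM on average, members whose groups do not overlap with at least 0.5 CPM, those with an unadjusted p under 0.05, and those with shared reads. All others are named after their values were seen. A few genes are counted in totals but not reported here by name or drawn. Coordinates are from GENCODE M21 (GRCm38), 1-based, and 38 of the 51 members had a RefSeq promoter.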

Additional observations from a re-analysis of the deposited data

How the results depend on the processing

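Of 27 results recomputed under up to 15 alternatives, 324 of 367 recomputed values were kept. A single gene was kept if its direction and side of the threshold stayed, and a count of genes if it stayed equal or similar. A median was kept if it moved by less than the SD of that median over the KO libraries. This SD was 0.57 for receptors and 1.21 for atypical receptors, so large moves there still count as kept. The number of members past the threshold was 1 with the DESeq2 Wald test, 0 to 4 when single libraries were left out and 0 in the other alternatives; the 4 (Cxcl9, Ackr1, Ccl27a, Cxcl14) were called without WT 3. Over all genes the number was 72 with DESeq2 and 0 to 5166 with a library left out. Cxcl9 was at −6.78 with DESeq2, past the threshold, and between −7.52 and −7.10 with a library left out. It dropped out of the fits with at least 1 CPM in 3 libraries and with WT 3 as the only wild-type library, so these give no value for it. The mean of Cxcl9 and Cxcl10 was −2.78 with limma-voom.

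With a library left out, the median ran from −0.35 to 0.60 for all ligands and from −0.35 to 0.62 for ligands other than Cxcl9 and Cxcl10, and the median of these was 0.23 against WT 3 alone. In the same fits Cxcl10 ran from −0.43 to 0.44, Ackr3 from −0.64 to 0.23, Ccl21a from −0.52 to 0.56, Cx3cl1 from −0.035 to 0.24, Cxcl12 from −0.10 to 0.69, Ackr1 from 0.95 to 4.44, Ccl27a from 0.60 to 1.68 and Cxcl14 from 0.59 to 1.90. Library size alone turned Cxcl10 (0.13), Ackr3 (0.15) and Ccl21a (0.089), while moving the median of all genes to 0.19. Limma-voom turned Ccl21a (0.19). Retina content as a covariate turned Ackr1 (−0.17), Ackr3 (0.71), Ccl21a (1.27), Cx3cl1 (−0.14), Cx3cr1 (−0.39), Cxcl14 (−0.079) and Cxcl16 (0.028). WT 3 as the only wild-type library, which holds no spread between wild-type samples and takes that of the KO libraries, turned Ackr3 (0.66), Ccl21a (1.43), Cx3cl1 (−0.076), Cx3cr1 (−0.098), Cxcl14 (−0.056) and Cxcl16 (0.062). The cause was not tested. Samples of the 2 genotypes share replicate numbers. In their deviations from the group means, same-numbered samples correlated at 0.0904 to 0.363 and differently numbered samples at −0.288 to 0.180. The main fit did not take the numbers to pair them, and these values do not settle whether they do. In edgeR, 2529 of 14983 genes had an unadjusted p under 0.05 with a replicate block, against 656 in the main fit. With a replicate block 0 members passed, Cxcl9 was at −7.27 (adjusted p = 0.274), and Ccl21a turned to 0.13. In 27 members, at most 17 counts in any library limit what can be seen.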
